A study of Homo sapiens and Mus musculus with 33 samples.

Results

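Broad domains of H3K18cr, histone H3 carrying a crotonyl group on lysine 18, were taken from the peaks called in mouse colon epithelium, as those in which the end lay at least 5000 bp beyond the start. There were 718 such domains among 30338 peaks (2.37%), and they made up 8.98% of the length of all peaks, 4.87 Mb. The domains were followed in 2 H3K18cr ChIP-seq libraries and 2 input libraries, and compared with 3 H3K4me3 ChIP-seq libraries with 1 input and with RNA-seq of 3 mice, all of these from colon epithelial cells of male C57BL/6 mice without treatment. The closing observations also use peak widths of HCT116, a human colorectal carcinoma line, from a list called for H3K18cr and H3K18ac together. Its 3 H3K18cr ChIP libraries and 1 input, after 18 h in DMSO, the solvent control, were read, but their values are not given. Epithelium was shaken off the opened colon with EDTA, so each library is a mixture of epithelial cell types. The methods describe pooled colons for the H3K18cr ChIP and the text describes cells of 2 mice, so the sources differ on whether a library stands for an animal or for a pool. The age of the mice was not given in the sources used here.

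Crotonylation is an acylation of lysine written with crotonyl-CoA, and like acetylation it is found on histones at the starts and enhancers of active genes. In the gut lumen, microbial fermentation makes short-chain fatty acids, which inhibit the deacetylases that also remove crotonyl groups. Wide domains of active marks are commonly found around genes that set the identity of a cell, and input, chromatin sequenced without an antibody, shows where reads pile up regardless of the mark.

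The sequences at these domains ranged from CpG-rich stretches to promoters nearly free of CpG. Shown here are the 150 bases before the annotated start of 6 genes in domains, 3 transcription factors in some of the widest domains and 3 genes with abundant RNA, read from the reference genome GRCm38 in the direction of transcription, with every CpG in capitals.
Cdx2, chr5:147307271-147307420, minus strand: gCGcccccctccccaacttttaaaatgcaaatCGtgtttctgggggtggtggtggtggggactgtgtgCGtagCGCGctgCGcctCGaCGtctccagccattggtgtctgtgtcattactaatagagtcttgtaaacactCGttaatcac
Klf5, chr14:99298541-99298690, plus strand: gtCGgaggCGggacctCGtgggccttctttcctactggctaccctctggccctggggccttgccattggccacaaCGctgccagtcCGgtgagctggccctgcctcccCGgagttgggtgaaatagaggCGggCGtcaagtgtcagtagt
Foxa1, chr12:57546122-57546271, minus strand: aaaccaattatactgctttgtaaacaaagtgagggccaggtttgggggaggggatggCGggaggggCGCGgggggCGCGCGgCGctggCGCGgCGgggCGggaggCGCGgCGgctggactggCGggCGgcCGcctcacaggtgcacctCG
Pigr, chr1:130826534-130826683, plus strand: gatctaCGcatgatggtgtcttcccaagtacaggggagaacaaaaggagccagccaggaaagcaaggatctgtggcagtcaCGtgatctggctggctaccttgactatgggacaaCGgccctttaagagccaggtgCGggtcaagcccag
Krt19, chr11:100148666-100148815, minus strand: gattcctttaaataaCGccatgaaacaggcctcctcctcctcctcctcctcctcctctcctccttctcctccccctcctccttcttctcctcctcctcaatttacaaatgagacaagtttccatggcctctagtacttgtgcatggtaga
Guca2a, chr4:119637554-119637703, plus strand: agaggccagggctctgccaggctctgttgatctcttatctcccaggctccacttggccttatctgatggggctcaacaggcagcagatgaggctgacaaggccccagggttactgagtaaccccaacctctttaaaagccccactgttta
The stretches before Cdx2, Klf5 and Foxa1 held 9, 8 and 18 CpG, and those before Pigr, Krt19 and Guca2a held 4, 1 and 0. Many domains lay away from any gene start. The next 3 stretches come from domains inside genes that touched no H3K4me3 peak, and are printed on the plus strand with the match to a motif nearest the centre of the domain in capitals, for HNF4 in Nln, for CDX in Tcf7l2 and for AP-1 in Mgst3.
Nln, chr13:104029259-104029357: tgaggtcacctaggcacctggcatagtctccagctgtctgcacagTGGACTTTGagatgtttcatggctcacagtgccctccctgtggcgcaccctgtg
Tcf7l2, chr19:55868804-55868900: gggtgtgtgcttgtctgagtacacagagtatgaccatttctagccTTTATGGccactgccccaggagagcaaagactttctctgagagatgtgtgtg
Mgst3, chr1:167381512-167381608: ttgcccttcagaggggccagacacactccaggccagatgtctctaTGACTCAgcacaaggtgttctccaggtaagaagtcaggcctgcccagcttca
All 3 stretches lay outside annotated exons.

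The domains were 5099 to 22349 bp wide, with a median of 6149 bp, against a median of 1499 bp for the 29620 narrower peaks. Of the domains, 156 reached 7500 bp and 45 reached 10000 bp. Just inside the limit, 65 domains were 5099 bp wide, with log2 ratios of ChIP to input (mean of replicates) of 0.85 to 2.51 and a median of 1.61. Just outside it, 66 peaks were 4949 bp wide, with ratios of 1.01 to 2.31 and a median of 1.54. Peaks that touch are listed apart, and 135 of the 718 (18.8%) touched another peak of the list, for example the pair at chr10:19524601-19529700 and chr10:19529701-19534800. Of the narrower peaks, 10.3% touched another. Of the scaled reads in all peaks, the domains held 9.59% and 10.3% in the 2 ChIP libraries and 8.62% and 8.61% in the inputs.

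Transcription factors of the intestinal epithelium lay in several of the 12 widest domains, of which 11 are described. Cdx2, a homeobox factor that specifies intestine, lay in the third widest domain (19799 bp, chr5:147298501-147318300), with 89.8 and 150 scaled ChIP reads per kb in the 2 replicates and 25.1 and 28.0 of input. ChIP stood further above input in replicate 2 than in replicate 1, and the ChIP libraries did not overlap the inputs.

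Klf5, a zinc-finger factor of proliferating crypt cells, lay in a domain of 16949 bp, with 85.3 and 153 ChIP reads per kb against 26.9 and 36.8. Foxa1, a pioneer factor of endoderm, and Klf3, a transcriptional repressor, each lay in a domain of 15149 bp. The remaining domains of the 11 held the starts of Hjurp and Trpm8, of Zmiz1, a transcriptional coactivator, and D930049A15Rik, of Prkcd, a protein kinase C, and of Mir196a-1 and Gm53 in the Hoxb cluster, or held no gene start. The 3 without a start lay inside Vmp1, 54533 bp from the start of Ppara and 5370 bp from the start of Btg2. In 10 of the 11 the input was at most 36.8 reads per kb in either library, and the domain at Hjurp was the exception.

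**Figure D1:**
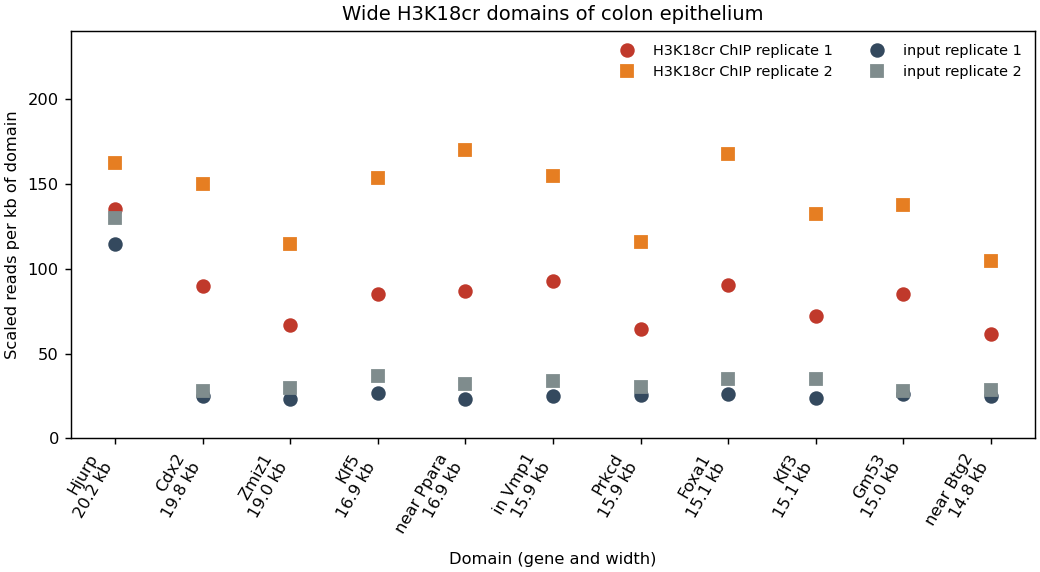
Scaled reads per kb (vertical axis) in 11 of the 12 widest domains (horizontal axis, with gene and width), 1 point per library, for 2 H3K18cr ChIP and 2 input libraries. Input lies at or below 36.8 in 10 domains and at 114 and 130 at Hjurp, where ChIP is at 135 and 162.

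Input reads separated the domain at Hjurp from the other 717. A domain was called high-input where input reads per kb were at least 3 times the median over all peaks, which was 26.7 and 33.4 scaled reads per kb, in both input libraries. Only 1 domain met this, at chr1:88272451-88292700 (20249 bp), and it was also the only peak of all 30338 to do so. It covers the starts of Hjurp, the chaperone of the centromeric histone CENP-A, and of Trpm8, a cold-sensing channel. It held 2315 and 2633 scaled input reads, 4.29 and 3.89 times the median per kb, and 2738 and 3288 ChIP reads, so the log2 ratio was 0.24 and 0.32, the lowest of all domains in each replicate.

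The third input, that of the H3K4me3 experiment, was also high there. The H3K4me3 peak in this domain held 520 input reads, 3.27 times the median per kb over H3K4me3 peaks, against a median of 0.99 and a highest value of 1.67 over the 661 H3K4me3 peaks that touched the other domains. Hjurp itself had RNA in each mouse, with 1372, 2117 and 1764 counts, and Trpm8 had 0 counts in all 3.

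In the other 717 domains input ranged from 0.68 to 2.02 times the median in replicate 1 and from 0.62 to 1.71 in replicate 2. The mean over both lay between 0.8 and 1.2 in 705 of the 718. Just 4 lay above 1.2, Hjurp and 3 domains on chromosome 4. The domain at chr4:61847851-61857750, 12618 bp from the start of Mup5 in the major urinary protein gene cluster, had 2.02 and 1.59 times the median input, a log2 ratio of 0.68 and 1.09, and 50.9% of its bases in annotated repeats. The domains at Hdhd3 (1.82 and 1.71 times) and Alad (1.48 and 1.55 times), which encodes an enzyme of haem synthesis, lie close to each other at chr4:62498851-62504550 and chr4:62515351-62521950. Their log2 ratios, 1.13 and 1.45 for Hdhd3 and 0.98 and 1.07 for Alad, were above that of Hjurp. After these came Rmnd5a, Txn1, Tspan3 and a domain 16673 bp from Hsd3b3, all with a mean below 1.2. At the low end were 9 domains under 0.8, with Bcl3 at 0.68 and 0.81.

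**Figure D2:**
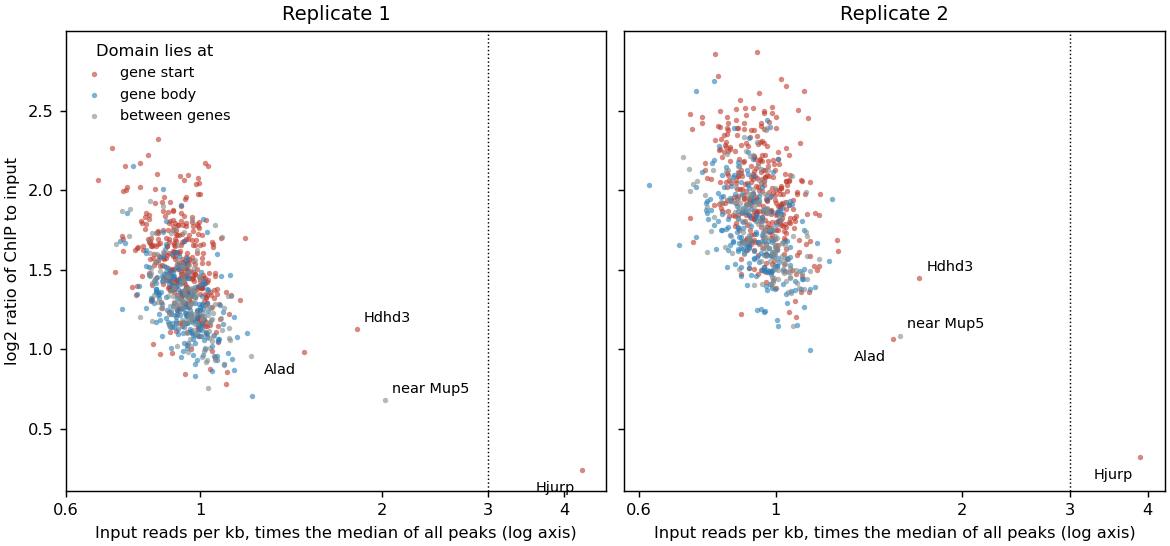
Log2 ratio of ChIP to input (vertical axis) against input reads per kb in multiples of the median over all peaks (horizontal log axis), 1 point per domain, by replicate and by where the domain lies. The dotted line marks 3 times the median, and Hjurp alone lies beyond it, at 4.29 and 3.89.

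ChIP exceeded input in both replicates in all 718 domains. The peaks were called on H3K18cr ChIP, and a call against input is stated for H3K4me3 alone, so the ratios are given as a description and test nothing. The log2 ratio had a median of 1.39 in replicate 1 (range 0.24 to 2.32) and 1.85 in replicate 2 (0.32 to 2.87), and narrower peaks had medians of 1.16 and 1.47. With Benjamini-Hochberg adjustment, limma called 709 of the 718 domains and 90.1% of all peaks higher in ChIP than in input, which the calling of peaks on these libraries largely fixed, so nothing is read from it.

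The 8 domains with the highest mean ratio all held a gene start. Arid1b, a subunit of the BAF chromatin remodeller, led with log2 ratios of 2.15 and 2.87. Foxd2, a forkhead factor, had 2.06 and 2.85. Brd2, a reader of acetylated histones, had 2.17 and 2.63, and was wholly covered by H3K4me3 peaks. Gm11772, Mll5, Fosl2 and Dyrk2 were also among the 8. At the other end, after Hjurp, were domains in Rmnd5a (0.71 and 1.00), near Mup5, in Akap13, at Alad, near E030042O20Rik, in Gm13481 and in Ndufa6, and of these only Hjurp and Alad held a start. Over the 718 domains the mean ratio had a Spearman correlation of 0.57 with the share of the domain under H3K4me3, 0.57 with GC content, 0.18 with width and -0.34 with input per kb. The ratio contains the input, and these values share their libraries and are given as a description.

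Replicate 2 had the higher ratio in 694 of the 718 domains, by a median of 0.45 on the log2 scale (SD 0.23 over domains). The difference was largest at Hoxa11, a homeobox gene of the posterior body, where ChIP held 297 and 927 scaled reads and input 151 and 168, which gave log2 ratios of 0.97 and 2.46. Hoxa13, the most posterior gene of the cluster, had rank 5 of 718 in this difference (1.03 and 2.05), Hoxa9 with Hoxa10 16th (1.30 and 2.20) and Hoxa7 32nd (1.18 and 1.98). At Hoxb8 and Hoxb7 the order was turned, with 1.96 in replicate 1 and 1.86 in replicate 2, a difference that ranked 712th. The Hox domains were singled out here after their values were seen. RNA came from other preparations, with 77, 61 and 46 counts of Hoxa11 and 274, 282 and 219 of Hoxa13.

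Gene starts lay in 358 of the 718 domains (49.9%, 95% Wilson interval 46.2 to 53.5), against 29.4% of narrower peaks (28.9 to 30.0) and 41.1% of the 819 peaks from 4000 to under 5000 bp (37.8 to 44.6). Intervals cover counting error only. Per Mb, domains held fewer starts, 88.5 against 202 in narrower peaks. A single start lay in 290 domains, 2 starts in 63 and 3 starts in 5. A further 213 domains (29.7%) lay inside a gene without its start, and 147 (20.5%) between genes. By RNA table coordinates 431 genes started in a domain, 333 of them protein-coding.

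Around a single start the domains reached further into the gene than before it, a median of 4283 bp downstream and 2111 bp upstream. The downstream side was the longer in 205 of 290 domains (70.7%), and in 78.4% of narrower peaks with 1 start. Prkcd and Guca2a were the reverse, with 13990 and 7453 bp upstream and 1909 and 1546 bp downstream. The domain at Cdx2 reached 11030 bp upstream and 8769 bp downstream, past the end of the gene. A median of 21.8% of the gene was covered, and 29 genes were covered whole.

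Some domains lay close together. Of 699 neighbouring pairs on a chromosome, 105 were at most 50000 bp apart, and 194 domains lay in groups of 2 or more. Some of these pairs touch, for example at Vdr, Ssbp3 and Krt19, so the counts include adjoining stretches that are listed as separate peaks. The share for narrower peaks was not counted. The 13 groups of 3 or 4 domains included the Hoxa cluster, with 4 domains over 54.2 kb that held Hoxa7, Hoxa9, Hoxa10, Hoxa11 and Hoxa13. Others lay at Lrig1, a negative regulator of epidermal growth factor receptors found on crypt stem cells, at Ezr, which links the brush border to actin, and at or near Elf3 and Zfp36l2. In Tcf7l2, the Wnt effector of the intestine, a domain of 6749 bp lay at the start. Domains of 5249 and 9899 bp, which touch each other, lay 116691 and 121941 bp from the start, without H3K4me3. Neighbouring domains also touch at Lrig1 and at Ezr. Cdh1, which encodes E-cadherin, had a domain of 5399 bp at its start and a wider one of 11999 bp inside the gene. In all, 48 genes met 2 or more domains, with touching domains counted apart.

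RNA of the genes starting in domains was higher than that of genes starting in narrower peaks in each of the 3 mice. RNA was not used to choose the domains. Levels are given as counts scaled to library size per kb of exon (CPM per kb), since longer transcripts give more reads. On the log2(CPM per kb + 0.1) scale, the 329 protein-coding genes with a count in any mouse that started in a domain had medians of 4.88, 4.76 and 4.74 in mice 1 to 3. The 8326 genes in narrower peaks had medians of 3.10, 3.12 and 3.06, and the 5166 genes starting in no peak -1.07, -0.91 and -0.93. The difference between domains and narrower peaks was 1.78, 1.64 and 1.67 (mean 1.70 ± 0.07, SD, n = 3 mice), or 3.25-fold, larger than the spread between mice. No test over the 3 mice was made.

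Median RNA was higher in each wider class also below the limit of 5000 bp, up to 10000 bp. The median over genes was 2.32, 2.33 and 2.28 (mice 1 to 3) for peaks under 1000 bp, 4.17, 4.17 and 4.16 from 4000 to under 5000 bp, and 4.62, 4.60 and 4.58 from 5000 to under 7500 bp. It was 5.53, 5.50 and 5.51 for the 58 genes in domains from 7500 to under 10000 bp, and lower, 5.27, 5.08 and 5.01, for the 30 genes in wider ones. Within the domains, width and RNA had a Spearman correlation of 0.16 over 329 genes. Exon length did not follow width, with medians between 3968.5 and 4981.5 bp over the width classes.

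**Figure D3:**
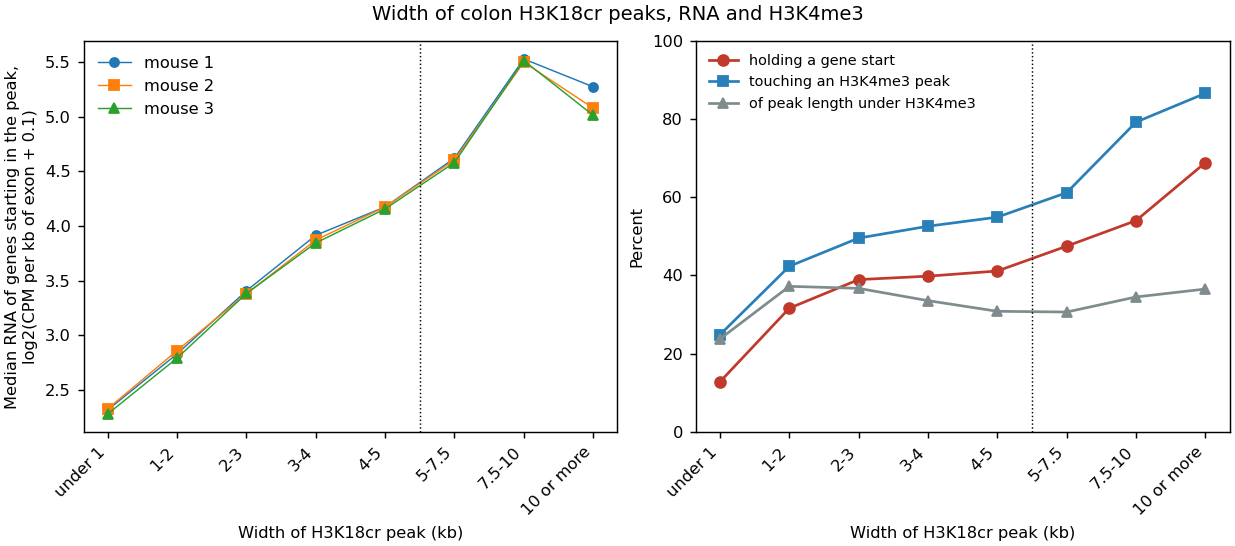
Left, median log2(CPM per kb + 0.1) of protein-coding genes by the width of the H3K18cr peak that holds their start, 1 line per mouse. Right, percent of peaks holding a gene start or touching an H3K4me3 peak, and percent of peak length under H3K4me3, with the limit of 5000 bp dotted. RNA climbs from 2.28 to 2.33 under 1000 bp to 5.50 to 5.53 from 7500 to under 10000 bp in all 3 mice.

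Of genes starting in domains, 67.2% were in the upper quartile of the 13821 expressed protein-coding genes, against 33.3% of those in narrower peaks, and 6 were in the lowest quartile. The highest by RNA per kb were Lgals4, a galectin of the brush border, with 1562, 1452 and 1559 CPM per kb, and Pigr, the receptor that carries IgA across the epithelium, with 1461, 1454 and 1502. Krt19 and Krt8, the keratins of simple epithelium, had 1362, 1099 and 1135 and 1172, 1058 and 969, and Oit1 had 1059, 1181 and 1061. By mean level these genes ranked 13, 14, 19, 22 and 21 among expressed protein-coding genes, in the order Lgals4, Pigr, Krt19, Krt8 and Oit1. At the low end, Gm16253, E130114P18Rik and Gm10382 had 0 counts in all 3 mice, Gm5475 had 1, 0 and 1 and Pde6a, a phosphodiesterase of rod cells, had 6, 3 and 0. A start in a domain thus did not require RNA of that gene.

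A domain was not needed for abundant RNA. Of the 100 protein-coding genes with the highest RNA per kb, 24 started in a domain, 50 in a narrower peak and 26 in no peak. No peak lay outside chromosomes 1 to 19, X and Y, so any mitochondrial genes could only count as starting in no peak. How many of the 26 lay elsewhere was not counted. Among all 19208 protein-coding genes, 1.73% started in a domain and 43.7% in a narrower peak.

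Many transcription factors of the intestine started in a domain. Lists of genes were written by hand with earlier results of these data known, and are described by counts only, beside the 1.73% over all protein-coding genes. Of 40 intestinal transcription factors, 17 (42.5%) started in a domain, 15 in a narrower peak and 8 in no peak. Beside Cdx2, Klf5, Foxa1, Klf3 and Tcf7l2 these included Cdx1, Elf3, Ehf, Klf4, Isx, Sox9, Hes1, Ets2 and Gata6. RNA spanned a wide range, for example Tcf7l2 with 6.73, 6.45 and 6.68 CPM per kb and Cdx1 with 321, 294 and 270. Cdx2 had 224, 218 and 182, and Elf3, an ETS factor of epithelial differentiation, 234, 182 and 167. Klf3, in one of the widest domains, had 10.0, 8.75 and 7.91.

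Genes of cell junctions and the cytoskeleton had 10 of 37 in domains and 23 in narrower peaks. These were Krt8, Krt19, Cdh1, Dsg2 of the desmosome, the claudins Cldn7 and Cldn15, the tight junction genes F11r, Cgn and Tjp3, and Ezr. Cldn7 had 474, 483 and 406 CPM per kb and a domain of 9899 bp, and Cgn, which encodes cingulin, a domain of 7049 bp.

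Of 28 immediate early genes, which respond within minutes to growth factors and stress, 8 (28.6%) started in a domain. They were the AP-1 subunits Jun, Junb, Jund and Fosl2, the RNA-decay factors Zfp36, Zfp36l1 and Zfp36l2, and Mcl1, an inhibitor of apoptosis. Jund had 257, 238 and 200 CPM per kb and Zfp36 8.50, 9.77 and 10.5. Of 39 Hox genes, 7 (17.9%) were in domains, all in the Hoxa and Hoxb clusters, with 21 in no peak.

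Nuclear receptors had 4 of 34 starts (11.8%) in domains, those of Rxra, Pparg, Nr1i2, a sensor of foreign compounds, and Nr1d1, a repressor of the circadian clock. Another 8, among them Vdr, Nr1h4, Nr5a2 and Ppard, met a domain inside the gene but not at the start. Over the 13821 expressed protein-coding genes, 150 had a domain inside and none at the start. Nr1d1 RNA differed between mice, with 3.58, 8.65 and 16.0 CPM per kb, and so did that of Dbp, a clock output gene in a domain of 5549 bp (1.06, 1.19 and 4.44), which was picked after its values were seen. The time of day of sampling was not given in the sources used here, and its part in these differences was not tested. The clock genes Per1, Per2 and Clock also started in domains, and their RNA is not given here. Of 28 genes of short-chain fatty acid use and ketogenesis, 2 were in domains (7.14%), among them Cpt1a, which admits long-chain fatty acids to mitochondria, with 45.4, 43.4 and 39.3 CPM per kb. The Wnt list had 2 of 30 (6.67%), Sox9 and Tcf7l2.

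The housekeeping lists had no start in a domain, beside a share of 1.73% over all protein-coding genes, at which lists of this size would hold few. None (0) of 79 cytosolic ribosomal protein genes, 82 genes of oxidative phosphorylation and 15 core histone genes started in a domain, though 66, 73 and 11 started in a narrower peak. Atp5d and Ndufa6, of the oxidative phosphorylation list, met a domain inside the gene. The median over genes was 53.9 CPM per kb for the ribosomal list, 101 for oxidative phosphorylation and 24.7 for the core histones, against 20.5 for the transcription factors. Paralogs and pseudogenes may affect the reads of the ribosomal list, so those levels are uncertain, and this was not tested.

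**Figure D4:**
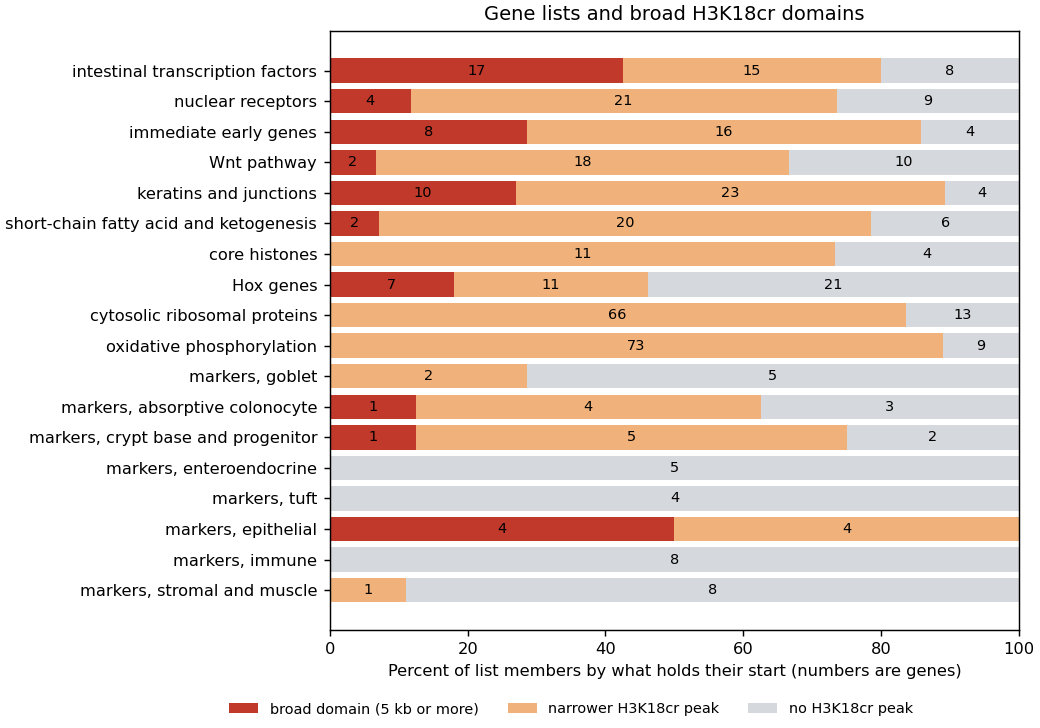
Percent of each list's members (horizontal axis) whose start lies in a broad domain, a narrower H3K18cr peak or no peak, with numbers of genes in the bars. The transcription factor bar has 17 of 40 in domains, and the ribosomal, oxidative phosphorylation and histone bars have 0.

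Markers of cell types checked the label of the tissue. All 8 epithelial markers had RNA and a peak at the start, and 4 of them (Krt8, Krt19, Cdh1 and Cldn7) started in a domain. Of 8 immune markers, 0 started in any peak, where 54.6% of all protein-coding genes started in none. Their summed RNA was 23.5, 28.5 and 33.8 CPM per kb against 5068, 4596 and 4348 for the epithelial list. Of 9 stromal and muscle markers, 1 (Vim) started in a narrower peak and 8 in none, with summed RNA of at most 14.8 and Pdgfra at 0 counts in all 3 mice. Few reads of immune and stromal markers were thus present beside those of epithelium.

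Of 7 goblet cell markers, 0 started in a domain, 2 in narrower peaks and 5 in no peak, and beside 1.73% over all protein-coding genes a count of 0 among 7 is no result about these genes. Their mean RNA ran from 0.891 CPM per kb for Clca1 to 2488 for Agr2. Muc2, the main secreted mucin, had 947, 1733 and 1367 CPM per kb and its start lay in no peak, as did those of Tff3 (1609, 1263 and 1289) and Zg16 (1630, 1292 and 902). Agr2, which folds mucin, had 2264, 2827 and 2372 and a peak of 2399 bp. Among 8 absorptive colonocyte markers, Guca2a (1192, 888 and 736) started in a domain of 8999 bp, 4 started in narrower peaks and 3 in none, Car1 (1144, 706 and 920) among the latter. All 5 enteroendocrine and all 4 tuft cell markers started in no peak, as did 54.6% of all protein-coding genes. In a mixture of cells, fewer cells of a type and less mark or RNA per cell cannot be told apart.

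H3K4me3, the trimethyl mark of promoters, was measured in other libraries and was not used to choose the domains. An H3K4me3 peak touched 471 of the 718 domains (65.6%, interval 62.0 to 69.0), against 40.7% of narrower peaks (40.1 to 41.2) and 54.9% of peaks from 4000 to under 5000 bp (51.5 to 58.3). Where a gene start lay in the domain the share was 94.7% (91.9 to 96.6), close to the 94.3% of narrower peaks with a start. For domains inside genes it was 45.1% (38.5 to 51.8) against 21.8%, and for those between genes 24.5% (18.2 to 32.0) against 14.1%. A wider interval has more room to touch a peak, and the part of width in these shares was not tested.

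The domains extended well past H3K4me3. Of those that touched an H3K4me3 peak, a median of 44.4% of the length was covered, against 88.9% in narrower peaks, and 10 domains were covered whole. Over all domains 32.1% of the length lay under H3K4me3, against 34.8% for narrower peaks, so the covered share of total length differed little. H3K4me3 was itself seldom as wide, with 104 of 27035 peaks at 5000 bp or more. Of those 104, 51 (49.0%) touched a broad H3K18cr domain, against 2.27% of the other 26931 H3K4me3 peaks, and 53 domains (7.38%) touched them. H3K4me3 peaks in domains had a median width of 2249 bp, against 1649 bp for those in narrower H3K18cr peaks. Their log2 ratios to input had medians of 1.62, 2.23 and 2.56 in the 3 replicates, lower than the 1.87, 2.61 and 3.01 of those in narrower H3K18cr peaks and higher than the 1.35, 1.78 and 2.00 of all H3K4me3 peaks outside domains.

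No H3K4me3 peak touched 247 domains (34.4%), and 228 of these held no gene start. Their log2 H3K18cr ratios had medians of 1.23 and 1.67, against 1.47 and 1.93 for the other domains. The widest were in Nln (14099 bp) and Mgst3 (13649 bp) and 480013 bp from Plcl1 (12449 bp, log2 ratios 1.74 and 2.13), and others of over 10000 bp lay in Ptprj and near Cxcl17. The 19 domains with a start but no H3K4me3 included 6 with a protein-coding start, those of Ldha, Lgals3, Mep1a, Rbp2, Hepacam and Fcamr. Ldha, which makes lactate, had 303, 257 and 275 CPM per kb, and at Lgals3 the next domain, 1800 bp from the annotated start, did touch an H3K4me3 peak. A start is the outermost one annotated, which need not be the one in use.

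The 150 expressed protein-coding genes with a domain inside but none at the start had medians of 3.78, 3.94 and 3.71 on the log2(CPM per kb + 0.1) scale, against 2.61, 2.65 and 2.59 for 3880 genes with only narrower peaks inside. Long genes have more room for a domain, and the part of gene length was not tested.

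At gene starts the domains had a lower median GC content than narrower peaks, 51.6% against 55.7%, and a lower CpG ratio (observed over expected from base content), 0.404 against 0.662. The CpG ratio was 0.218 against 0.219 in gene bodies and 0.202 against 0.206 between genes. Wider intervals reach further from the start, and the part of width was not tested. In the 300 bases from 250 before to 50 after the start, the CpG ratio was under 0.6 in 36.9% of 333 genes in domains and in 24.3% of 8389 genes in narrower peaks, as in the stretches before Pigr, Krt19 and Guca2a above. The RNA difference held in both classes. With a CpG ratio under 0.6 the medians in mice 1 to 3 were 5.12, 5.10 and 4.95 in domains and 2.93, 2.92 and 2.92 in narrower peaks, and with 0.6 or more 4.72, 4.69 and 4.70 against 3.14, 3.17 and 3.10.

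Short motifs were counted on both strands, as a description. At gene starts the domains had a median width of 6224 bp against 1649 bp for narrower peaks. The part of width in these rates was not tested. TTTATGG or TTTATTG, bound by CDX factors, occurred 0.301 times per kb in domains at gene starts against 0.218 in narrower peaks at gene starts, and 0.376 against 0.406 between genes. TGAGTCA or its reverse TGACTCA, bound by AP-1, occurred 0.211 against 0.135 times at gene starts and 0.276 against 0.278 between genes. GGGCGGG (KLF and SP factors) occurred 0.536 against 1.11 times at gene starts and 0.159 against 0.200 between genes. CAAAGTCCA (HNF4) occurred 0.0187 against 0.0161 times at gene starts and 0.0181 against 0.0313 between genes. In gene bodies the rates in domains were 0.359 for CDX, 0.263 for AP-1, 0.204 for GGGCGGG and 0.0289 for CAAAGTCCA, against 0.367, 0.254, 0.264 and 0.0306. In the windows at starts, an AP-1 match was in 6.69% of expressed protein-coding genes in domains and 3.04% of those in narrower peaks. Over all genes, of any type and with or without RNA, it was in 4.44%. A CDX match was in 6.38%, 4.13% and 6.76%, in the same order. GGGCGGG was in 49.5%, 50.2% and 29.2%, and CAAAGTCCA in 0.608%, 0.384% and 0.451%. The window at Lgals4 held 1 CDX, 1 HNF4 and 1 GGGCGGG match, and that at Guca2a 1 AP-1 match.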

How the data were processed

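The authors trimmed reads with Trim Galore, mapped ChIP-seq reads to GRCm38 with Bowtie2 (0.4.2 and 2.2.5 per the processing notes; for ChIP-seq the methods name another Bowtie2 version and a further Trim Galore version), removed duplicates and called peaks with MACS in SeqMonk (300 bp fragments and a p-value limit of 1e-05, settings the methods state for H3K4me3), giving 1 peak list per experiment. RNA-seq reads were mapped with HiSat2 per the methods and TopHat2 2.0.12 per the processing notes. Whether counting used strand was not given in the sources used here, so overlapping genes cannot be told apart. The deposited RNA table holds raw counts per gene (8166406 to 10707901 per library). The deposited colon ChIP tables hold signal per peak, reads scaled by the authors to the largest library. The deposited HCT116 table holds log2 of such reads.

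Widths, overlaps and gene starts use the tables' coordinates. Sequences came from RefSeq GRCm38.p6 and exon length from GENCODE M21, in which 22735 of 25965 gene names were found. Log2 ratios were taken after 1 scaled read was added to each value, and RNA per kb after 0.1. limma 3.58.1 (R 4.3.3, trend, mean of at least 10 scaled reads) was tested on simulated data, and Python 3.11.15 was used for the rest. The domains and gene lists were chosen with earlier results of these data known. Named domains are the 12 widest, the 8 highest and lowest by ratio, the 8 highest by input and those next to the limit (given as ranges, since many tie in width), and named genes the 5 highest and lowest by RNA and list members in domains; domains and genes shown as examples outside these, such as those named for H3K4me3, grouping or sequence, were picked after their values were seen. A few genes and domains that these rules name are not reported here. Libraries were grouped by their labels. With 2 or 3 libraries a group, spreads may be technical.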

Additional observations from a re-analysis of the deposited data

How the results depend on the processing

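A limit of 4000 bp gave 1537 domains and one of 10000 bp gave 45. Merging peaks that touch gave 925, and merging those at most 500 bp apart 1367, both chosen after seeing the data. No domain (0) reached 5 times the median input. The median log2 ratio of 1.62 (mean of replicates) was 1.39 to 1.85 with a replicate left out, and 0.28 after TMM (edgeR 4.0.16), which centres all peaks near 0. Without Input replicate 1 or 2, limma called 0 domains (0 and 17 at an unadjusted p under 0.05), the lone input being assumed to vary like the ChIP libraries, and over all settings that left out a library it called 0 to 717. With the number as a block it called 716. Same-numbered ChIP and input libraries deviated together only weakly (correlation 0.04 over all peaks, 0.09 over the domains), so they were not treated as pairs. Any overlap with a gene body gave 571 domains in place of 358, and H3K4me3 over at least 50% of the domain 204 in place of 471. The RNA difference of 1.70 was 1.60 with a pseudocount of 1 and 1.47 without division by length, and 1.66 to 1.73 with a mouse left out. The other alternatives moved no value beyond the spread between replicates and no count by over 1.5 times. edgeR on ChIP values was not run, as they are scaled. H3K18cr rests on 2 ChIP libraries, and an input near 30 reads per kb limits narrow or weak domains.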

Other observations

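Human counterparts of the genes in domains were looked up in HCT116 cells, a human colorectal cancer line, kept in DMSO, the solvent control, for 18 h. Peaks there were called for H3K18cr and H3K18ac together, and 4249 of 40266 (10.6%) were at least 5000 bp wide, so widths cannot be compared directly with colon. Of 311 protein-coding genes starting in a mouse domain with a human gene of the same symbol, 108 (34.7%, Wilson interval 29.7 to 40.2) had a human start inside a peak of at least 5000 bp, against 761 of 7488 (10.2%) genes in narrower mouse peaks. A peak of any width was at the start of 79.4% and 84.1%. Wide in both were Klf5 (7649 bp in HCT116), Klf3 (7799 bp), Elf3 (8099 bp), Cldn7 (6599 bp), Hes1 (13799 bp) and Sox9 (19949 bp). Cdx2 had a peak of 3299 bp, and no peak lay at the human start of PIGR, LGALS4, CDX1 or ISX. Genes were matched by symbol alone, and the named ones were picked after their values were seen.

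No domain (0) lay on the X chromosome, which had 508 peaks, the widest of 4049 bp, or on the Y chromosome with 8 peaks, while 2.41% of 29822 autosomal peaks were domains. Input per kb in X peaks had medians of 0.63 and 0.61 times that of all peaks, in male mice with a single X, and the log2 ratios there had medians of 1.70 and 2.09. The part of the lower read depth in this was not tested. Among autosomes the share ranged from 1.37% on chromosome 16 to 3.14% on chromosome 3.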
